A study of Mus musculus with 12 samples.

Results

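The genes described here are the ephrins, Slits and netrins and the receptors that read them, in mouse spinal cord measured on 12 one-colour Affymetrix arrays. Members were chosen by gene symbol: of 34 listed genes, 33 had a probe set with 1 gene symbol and were analysed, out of 18194 genes on the arrays. For a gene with several probe sets the one with the highest mean was kept. Ephb2 was not analysed here. The 33 genes were 12 Eph receptors, 8 ephrins, 3 Slits, 3 Robo receptors, 2 netrins and 5 netrin receptors.

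These families steer growing axons and migrating cells. Ephrins are bound to the membrane of one cell and Eph receptors sit on its neighbour; ephrin-A ligands are held by a lipid anchor, whereas ephrin-B ligands cross the membrane and signal in their own cell as well. Slits are secreted and repel cells that carry Robo receptors, and this keeps commissural axons from crossing the midline again. Netrin-1 is made by the floor plate and the ventricular zone of the developing spinal cord, attracts axons through Dcc and repels cells through Unc5 receptors. In the oligodendrocyte lineage these cues act on the migration of precursors and on the growth of the processes that make myelin.

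The series compared wild-type mice with Olig2cre/DA-Cat littermates at day 4 and day 15, with 3 arrays in each of the 4 groups. With Olig2cre, Cre acts in cells of the Olig2 lineage, that is oligodendrocytes, their precursors and motor neurons, and DA-Cat is named for dominant-active β-catenin, the protein that carries canonical Wnt signals to the nucleus. No group carried Cre alone, so Cre and DA-Cat cannot be told apart. The labels tag the days as developmental stages, but their description and protocol speak of 0.5 μL of 1% lysolecithin injected into ventrolateral white matter of mice 8 to 10 weeks old and cords taken without a lesion or 14 days after it; which of these applies to the arrays was not settled. The labels call the replicates biological and give neither sex nor the number of animals behind an array, so p-values measure the spread between these samples.

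Levels are log2 signals and differences are log2 differences; 1 unit is a doubling. A gene is called where limma's p-value, Benjamini-Hochberg adjusted over all 18194 genes, was under 0.05. Array medians lay between 6.14 and 6.19. Arrays of 1 group correlated at 0.994 to 0.997 on average over all probe sets, and depth does not apply to arrays, so their number limits the precision. Oligodendrocyte markers had mean levels of 10.52 to 10.75 in the wild type against 8.20 to 8.38 in Olig2cre/DA-Cat at day 4, and of 12.39 to 12.49 and 11.60 to 11.96 at day 15. All 8 neuron markers were over 5 in every group, with array means of 12.47 to 12.72, although the source name reads white matter. The skeletal muscle markers ranged from 5.25 to 11.66 and were highest on Olig2cre/DA-Cat day 15 replicate 1. Both the X-linked Xist and the Y-linked Eif2s3y were well over background on 9 arrays; Xist was low on 2 (5.49 and 5.64) and Eif2s3y on 1 (3.29). In such tissue, fewer cells of a type and less RNA per cell cannot be told apart.

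The first comparison asked whether dominant-active β-catenin in Olig2-expressing cells changed guidance genes. At day 4 the netrin receptor Unc5b was lower and the receptor Ephb3 higher in Olig2cre/DA-Cat. At day 15 Unc5b, the receptor Ephb1 and the ligand Efnb3 were lower, and the ligand Efna5 was higher. Thus 2 of 33 members were called at day 4, where 3.12% of all genes were called, and 4 of 33 at day 15, where 2.93% were. By direction, 1 member was higher and 1 lower at day 4, where 1.3% of all genes were higher and 1.81% lower, and 1 was higher and 3 lower at day 15, where the shares were 0.616% and 2.31%. The median difference of the members was 0.09 at day 4 and 0.12 at day 15, against 0.03 and 0.02 over all genes.

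**Figure D1:**
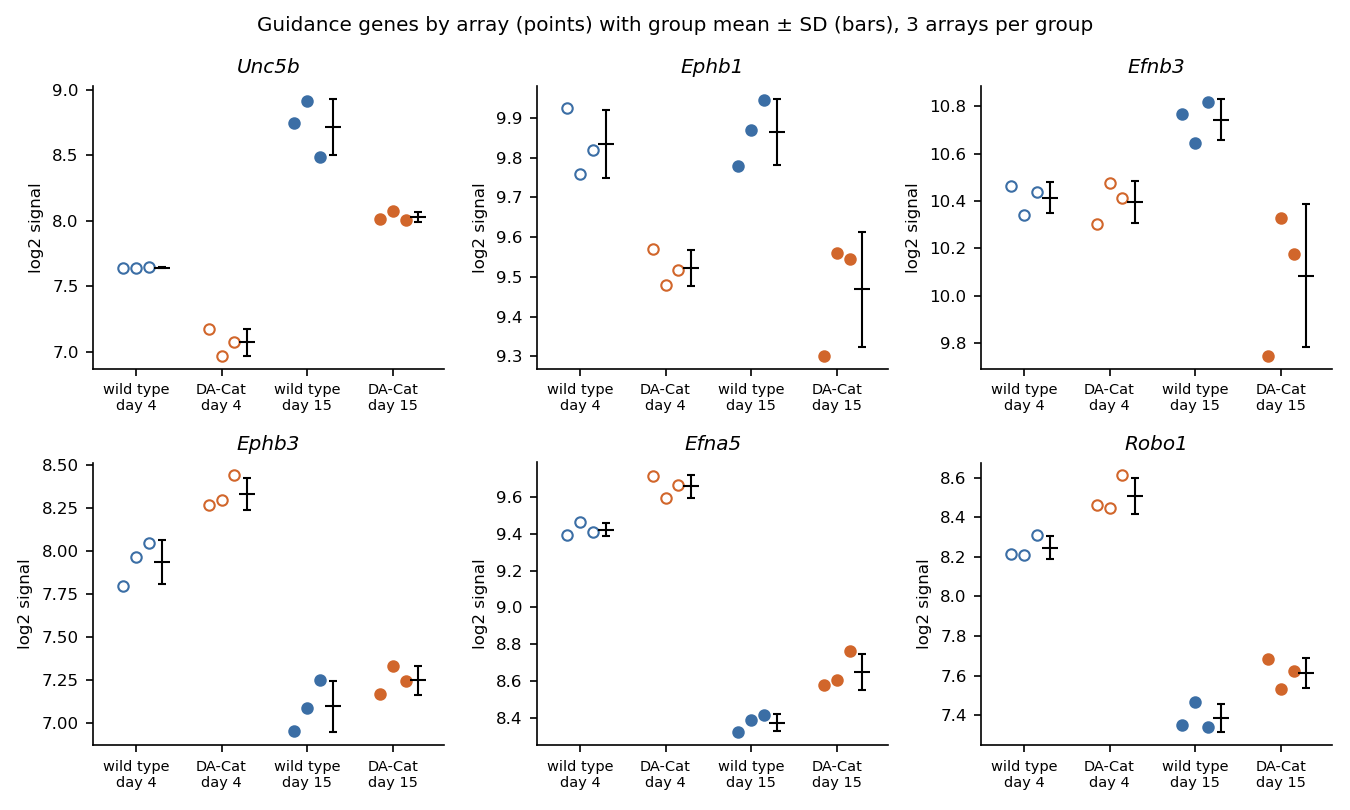
Log2 signal of 6 guidance genes on each of the 12 arrays (points, replicates 1 to 3 from left to right; open at day 4, filled at day 15; blue wild type, orange Olig2cre/DA-Cat), with the group mean and SD (bars) and axes that do not start at 0. Unc5b and Ephb1 lay lower in Olig2cre/DA-Cat at both days without overlap, Efnb3 at day 15 alone, and Efna5 and Robo1 lay higher at both days.

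Unc5b, a receptor that turns the netrin signal into repulsion, had the smallest p of the members at both days. In wild type at day 4 its levels were 7.64, 7.64 and 7.65, and in Olig2cre/DA-Cat they were 7.17, 6.97 and 7.07. At day 15 they were 8.75, 8.92 and 8.49 in the wild type against 8.01, 8.07 and 8.00 in Olig2cre/DA-Cat. The groups did not overlap at either day. Unc5b was lower by -0.57 ± 0.09 (SE, adjusted p = 0.00559) at day 4 and by -0.69 ± 0.09 (SE, adjusted p = 0.00205) at day 15, which are 0.674 and 0.621 times the wild-type signal. The other Unc5b probe set gave -0.75 and -0.71. The call held at both days under all 23 alternative settings, in which the difference lay between -0.66 and -0.52 at day 4 and between -0.80 and -0.59 at day 15.

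Ephb1, an EphB receptor tyrosine kinase that binds ephrin-B ligands, was at 9.93, 9.76 and 9.82 in the wild type against 9.57, 9.48 and 9.52 in Olig2cre/DA-Cat at day 4. At day 15 it was at 9.78, 9.87 and 9.95 in the wild type against 9.30, 9.56 and 9.55 in Olig2cre/DA-Cat. All Olig2cre/DA-Cat arrays were below all wild-type arrays of the same day. The difference was -0.40 ± 0.08 (SE, adjusted p = 0.0182) at day 15, and at day 4 it was -0.31 ± 0.08 (SE, adjusted p = 0.0556), short of the threshold. Without Olig2cre/DA-Cat day 15 replicate 1, the array with the most muscle signal, the day 15 difference was -0.31 (adjusted p = 0.0559), and with the muscle level as covariate it was -0.33 (adjusted p = 0.0611). It was also short of the threshold without wild type day 15 replicate 2 (adjusted p = 0.0617) or 3 (adjusted p = 0.0651), and from the day 15 arrays alone (adjusted p = 0.125). Averaged over both days Ephb1 was lower by -0.35 ± 0.06 (SE, adjusted p = 0.00237).

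Efnb3, a transmembrane ephrin that acts as a midline barrier to corticospinal axons and is made by myelinating oligodendrocytes, was at 10.46, 10.34 and 10.44 in the wild type against 10.30, 10.48 and 10.41 in Olig2cre/DA-Cat at day 4. At that day the values were interleaved and the difference was -0.02 (adjusted p = 0.952). At day 15 its levels were 10.77, 10.65 and 10.82 in the wild type against 9.75, 10.33 and 10.18 in Olig2cre/DA-Cat. All 3 Olig2cre/DA-Cat arrays lay below wild type, replicate 1 by the widest margin. The difference at day 15 was -0.66 ± 0.12 (SE, adjusted p = 0.0107), and without that replicate it was -0.49 (adjusted p = 0.0136). From the day 15 arrays alone it was not called (adjusted p = 0.111).

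Ephb3 and Efna5 were called higher in Olig2cre/DA-Cat, each at 1 of the days. Ephb3, whose gene is a known target of β-catenin in the intestinal epithelium, was at 7.80, 7.97 and 8.05 in the wild type against 8.27, 8.30 and 8.44 in Olig2cre/DA-Cat at day 4. The groups did not overlap, and the difference was 0.40 ± 0.09 (SE, adjusted p = 0.0368). At day 15 it was at 6.96, 7.09 and 7.25 in the wild type against 7.17, 7.34 and 7.25 in Olig2cre/DA-Cat, which overlapped, with a difference of 0.15 (adjusted p = 0.431). The difference of these 2 effects was -0.25 and was not called (adjusted p = 0.556). The day 4 call of Ephb3 was lost with quantile normalization (0.35, adjusted p = 0.0565), without wild type day 4 replicate 1 (0.33) or 2 (0.41), without Olig2cre/DA-Cat day 4 replicate 1 (0.43), 2 (0.42) or 3 (0.34), and without wild type day 15 replicate 2 (adjusted p = 0.0548).

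Efna5, an ephrin-A ligand that repels axons in topographic maps, was at 8.32, 8.39 and 8.41 in the wild type against 8.58, 8.61 and 8.76 in Olig2cre/DA-Cat at day 15. The groups did not overlap, and the difference was 0.28 ± 0.06 (SE, adjusted p = 0.0372). At day 4 the levels were 9.39, 9.46 and 9.41 in the wild type against 9.71, 9.59 and 9.67 in Olig2cre/DA-Cat, again without overlap, with a difference of 0.23 (adjusted p = 0.0687). The day 15 call held under 8 of 23 settings. It was lost on leaving out any 1 of 9 arrays, that is each wild-type array of either day, Olig2cre/DA-Cat day 4 replicate 2 or 3, or Olig2cre/DA-Cat day 15 replicate 3, with adjusted p up to 0.144. The call was also lost from the day 15 arrays alone, with the replicate block (adjusted p = 0.0529) and under further settings of the processing or the model. The second Efna5 probe set, dim at a mean of 4.17, gave 0.05.

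**Figure D2:**
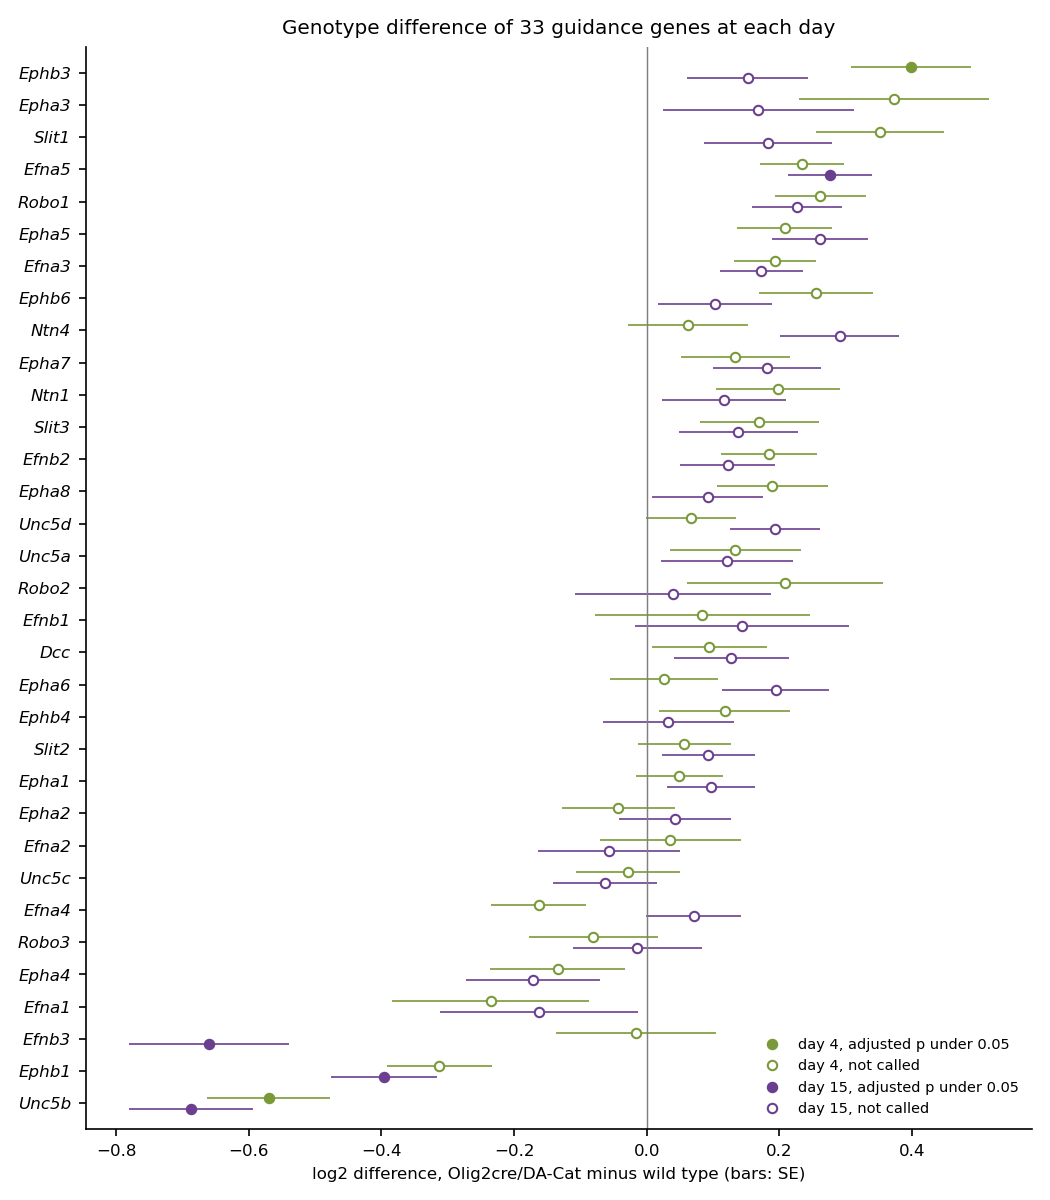
Genotype difference of the 33 guidance genes in log2 units at day 4 (green) and day 15 (purple), Olig2cre/DA-Cat minus wild type, with SE bars; filled points had an adjusted p under 0.05. Unc5b was called at both days, and most other differences lay between 0 and 0.4 and were not called.

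Averaged over both days, 9 of 33 members differed between the genotypes, 6 higher and 3 lower, where 8.31% of all genes were called (4.19% higher, 4.12% lower). The lower ones were Unc5b at -0.63 ± 0.07 (SE, adjusted p = 0.000102), Ephb1 and Efnb3 (-0.34, adjusted p = 0.0317). The higher ones were Efna5 at 0.26 ± 0.04 (SE, adjusted p = 0.00478), Robo1, Epha5, Ephb3 at 0.28 (adjusted p = 0.0223), Efna3 at 0.18 (adjusted p = 0.026) and the ligand Slit1 at 0.27 (adjusted p = 0.0339). The other Slit1 probe set (mean 7.59) gave only 0.07 on that average, and the other one of Efna3 gave 0.27. Robo1, the main receptor of Slits on commissural axons, was at 8.22, 8.21 and 8.31 in the wild type against 8.46, 8.45 and 8.61 in Olig2cre/DA-Cat at day 4. At day 15 it was at 7.35, 7.47 and 7.34 and at 7.68, 7.53 and 7.62. No array of 1 genotype overlapped the other at either day, and the average difference was 0.24 ± 0.05 (SE, adjusted p = 0.00922). Epha5, a receptor of ephrin-A ligands on many neurons, was at 9.67, 9.63 and 9.56 against 9.84, 9.82 and 9.82 at day 4. At day 15 its levels were 8.56, 8.42 and 8.73 against 8.85, 8.84 and 8.80, so that the genotypes parted at both days, by 0.23 ± 0.05 on average (SE, adjusted p = 0.016). Other Epha5 probe sets gave 0.05, 0.21 and -0.09 on that average, and those of Robo1 gave 0.14 and -0.05. With the mean of all probe sets of each gene, 5 members were called, and Efna5 (0.12), Robo1 (0.11) and Epha5 (0.10) were not among them. The count was 4 with the muscle level as covariate, and 5 without wild type day 15 replicate 1, without wild type day 4 replicate 1 or without Olig2cre/DA-Cat day 4 replicate 3.

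By separation alone, 12 members had all Olig2cre/DA-Cat arrays above all wild-type arrays at day 4 and 3 had them below, where 29.1% of all genes were parted in either direction (18.8% above, 10.3% below). At day 15 8 members were parted upward and 3 downward, where 20.3% of all genes were parted (10.6% above, 9.69% below). The 24 members called in none of the genotype contrasts had differences of -0.23 to 0.37 at day 4 and of -0.17 to 0.29 at day 15. They included the netrin Ntn1 (0.20 and 0.12), its receptor Dcc (0.09 and 0.13), the ligands Slit2 (0.06 and 0.09) and Efnb2 (0.18 and 0.12), and the receptors Epha4 (-0.13 and -0.17) and Unc5c (-0.03 and -0.06).

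Markers of several cell types moved with these members. Of 8 oligodendrocyte markers 7 were lower in Olig2cre/DA-Cat at day 4 and 7 at day 15, with medians of -2.56 and -0.70. Of 7 markers of oligodendrocyte precursors 5 were lower at day 4, 2 at day 15 and 5 on the average of days, with medians of -0.44, -0.19 and -0.35. Olig2 itself was among those called at both days (-0.90 and -0.44). Without a group carrying Cre alone, the part of the Olig2cre allele in the level of Olig2 cannot be told apart. Ordered by the oligodendrocyte marker level, the groups were Olig2cre/DA-Cat day 4, wild type day 4, Olig2cre/DA-Cat day 15 and wild type day 15, and Unc5b had group means of 7.07, 7.64, 8.03 and 8.72 in that order. Ephb1 did not follow it, with means of 9.52, 9.83, 9.47 and 9.87, nor did Efnb3, with 10.40, 10.41, 10.08 and 10.74. Endothelial markers, listed because Unc5b is also known from vessels, had group means of 7.60, 7.56, 7.78 and 7.61 in the same order, and 0 of 7 were called in limma for genotype at either day (0 at an unadjusted p under 0.05 at day 4 and 2 at day 15). On the average of days 8 of 8 neuron markers had a positive difference (median 0.06), where 10416 of 18194 genes had one. Stmn2 (0.18, adjusted p = 0.0109) and Syt1 (0.16, adjusted p = 0.0372) were called. All 7 endothelial markers (median 0.10), 6 meninges and fibroblast markers (0.49) and 9 skeletal muscle markers (1.47) were positive too, none of them called. Of the astrocyte markers 3 of 7 were positive, and of the microglia and macrophage markers 2 of 6. Of 5 motor neuron markers 4 were positive (median 0.15) and 0 were called. All 3 Schwann cell markers (0.14) and all 3 ependyma markers (0.18) were positive, with 1 called higher in each list. Of 5 pericyte and smooth muscle markers 3 were positive (0.07) and 0 were called. Of 4 floor plate markers Shh (0.25, adjusted p = 0.0392) and Foxa2 (0.20, adjusted p = 0.0391) were called higher on that average. In all, 3 of the 4 were positive and the lowest was at -0.09. Only 2 of the 4 had means over 5 in every group, and Foxa1 was under 5 in all groups. The part of any of these marker shifts in the differences of the guidance genes was not tested.

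**Figure D3:**
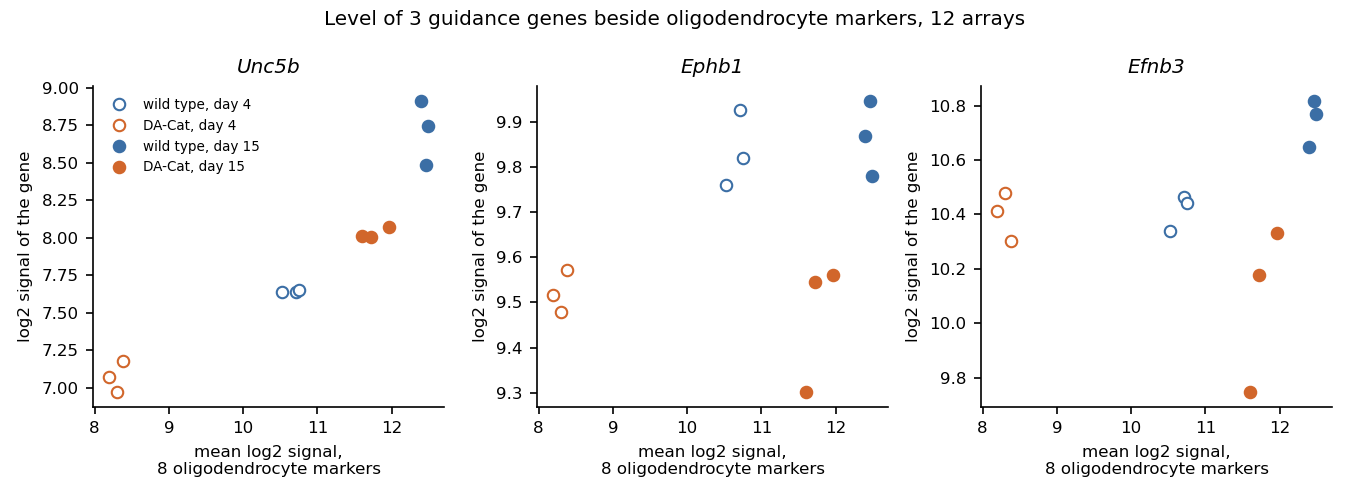
Log2 signal of Unc5b, Ephb1 and Efnb3 (vertical axes) against the mean log2 signal of 8 oligodendrocyte markers (horizontal axes) on the 12 arrays, with 1 point per array; open points are day 4, filled points day 15, blue wild type and orange Olig2cre/DA-Cat. The 4 groups stood in the same order on both axes for Unc5b, from 7.07 to 8.72, but not for Ephb1 or Efnb3.

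The promoters of members called for genotype at day 4 or day 15, and of the ephrin-B family, are shown where the table held an entry, because β-catenin acts on genes through TCF/LEF factors. Sequences are the 250 bases before the start site in RefSeq, assembly GRCm38.p6, on the strand of the gene. They are Unc5b at chr10:60831582-60831831 (minus strand), Ephb1 at chr9:102354694-102354943 (minus), Ephb3 at chr16:21204545-21204794 (plus), Efna5 at chr17:62881318-62881567 (minus), Efnb1 at chrX:99135811-99136060 (plus) and Efnb2 at chr8:8661243-8661492 (minus). Capitals mark a GC box, GGGCGG or its reverse complement CCGCCC. Efnb3 had no entry in the table.
Unc5b: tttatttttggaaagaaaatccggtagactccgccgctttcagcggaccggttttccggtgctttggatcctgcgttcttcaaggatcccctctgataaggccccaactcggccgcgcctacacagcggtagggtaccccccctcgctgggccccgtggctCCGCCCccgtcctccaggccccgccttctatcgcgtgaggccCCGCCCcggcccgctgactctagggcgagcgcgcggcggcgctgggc
Ephb1: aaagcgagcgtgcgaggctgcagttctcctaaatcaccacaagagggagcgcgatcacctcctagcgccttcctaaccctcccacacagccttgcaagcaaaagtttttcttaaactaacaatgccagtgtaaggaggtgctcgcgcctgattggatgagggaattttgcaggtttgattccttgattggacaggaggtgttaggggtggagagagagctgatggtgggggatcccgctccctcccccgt
Ephb3: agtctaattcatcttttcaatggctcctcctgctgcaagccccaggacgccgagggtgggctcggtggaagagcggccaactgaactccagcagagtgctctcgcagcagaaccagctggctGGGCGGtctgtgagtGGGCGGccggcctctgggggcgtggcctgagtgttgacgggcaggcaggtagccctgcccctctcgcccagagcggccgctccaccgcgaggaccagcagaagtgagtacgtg
Efna5: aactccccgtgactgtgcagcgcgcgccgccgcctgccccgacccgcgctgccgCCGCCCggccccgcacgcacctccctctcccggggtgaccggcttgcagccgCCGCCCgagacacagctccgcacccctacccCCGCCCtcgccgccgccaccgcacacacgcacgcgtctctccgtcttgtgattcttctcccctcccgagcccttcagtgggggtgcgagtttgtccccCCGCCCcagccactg
Efnb1: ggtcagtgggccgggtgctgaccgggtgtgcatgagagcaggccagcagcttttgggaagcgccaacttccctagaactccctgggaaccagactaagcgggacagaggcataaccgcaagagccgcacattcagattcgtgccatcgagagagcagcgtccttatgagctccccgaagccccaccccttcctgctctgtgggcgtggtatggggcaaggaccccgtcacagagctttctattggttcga
Efnb2: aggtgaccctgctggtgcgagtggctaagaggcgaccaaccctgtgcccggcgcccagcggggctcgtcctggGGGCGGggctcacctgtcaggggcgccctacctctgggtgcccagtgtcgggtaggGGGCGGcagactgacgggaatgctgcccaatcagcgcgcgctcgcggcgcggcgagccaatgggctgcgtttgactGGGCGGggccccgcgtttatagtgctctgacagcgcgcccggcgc

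The TCF/LEF letters searched on both strands were CTTTGAA or CTTTGAT on the one hand and CTTTGTA or CTTTGTT on the other, which do not overlap with the GC box. None of them occurred in these 6 windows, nor in those of Robo1, Epha5 and Efna3, which were called on the average of days. Among the 33 windows of the 28 measured members with an entry, 2 held one (6.06%), against 14.8% of 32851 windows of all genes. Both belonged to members that were not called for genotype, Efna4 (chr3:89338169-89338235, minus strand) and Epha2 (chr4:141300982-141301048, plus strand), shown with the match in capitals.
Efna4: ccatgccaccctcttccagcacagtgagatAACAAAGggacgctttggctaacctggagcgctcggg
Epha2: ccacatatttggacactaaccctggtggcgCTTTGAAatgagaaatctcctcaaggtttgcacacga
A GC box was found in 24 of the 33 windows (72.7%), against 32.7% of all windows; Unc5b had 2, Ephb3 2, Efna5 4, Efnb2 3, and Ephb1 and Efnb1 0. The share of G and C bases was 54% (Ephb1) to 74.8% (Efna5) in the 6 windows shown whole, against a median of 52.4% over all windows. Its part in the shares of windows with a GC box or with TCF/LEF letters was not tested. A match in such a window describes its letters only.

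The second comparison followed the same genes from day 4 to day 15. In wild type 19 of 33 members fell and 2 rose, where 44.9% of all genes were called (23.6% fell, 21.3% rose). In Olig2cre/DA-Cat 21 fell and 3 rose, where 48.1% were called (26.3% fell, 21.8% rose). The median change in wild type was -0.38 for the members and -0.02 over all genes. In Olig2cre/DA-Cat it was -0.55 for the members and 0.00 over all genes. The same 18 members fell in both genotypes, with changes of -1.42 to -0.28 in wild type; in Olig2cre/DA-Cat these were -1.62 to -0.25. Unc5b rose in both. Without the dimmest 30% of genes, 65.5% of 29 members fell in wild type, where 31.2% of the genes fell. The count in wild type stayed between 15 and 22 under all settings. By separation alone, 2 members had all day 15 arrays above and 20 all below the day 4 arrays in wild type, where 53.3% of all genes were parted (25.3% above, 28.1% below). In Olig2cre/DA-Cat 4 were above and 20 below, where 56.2% were parted (26.1% above, 30.1% below).

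**Figure D4:**
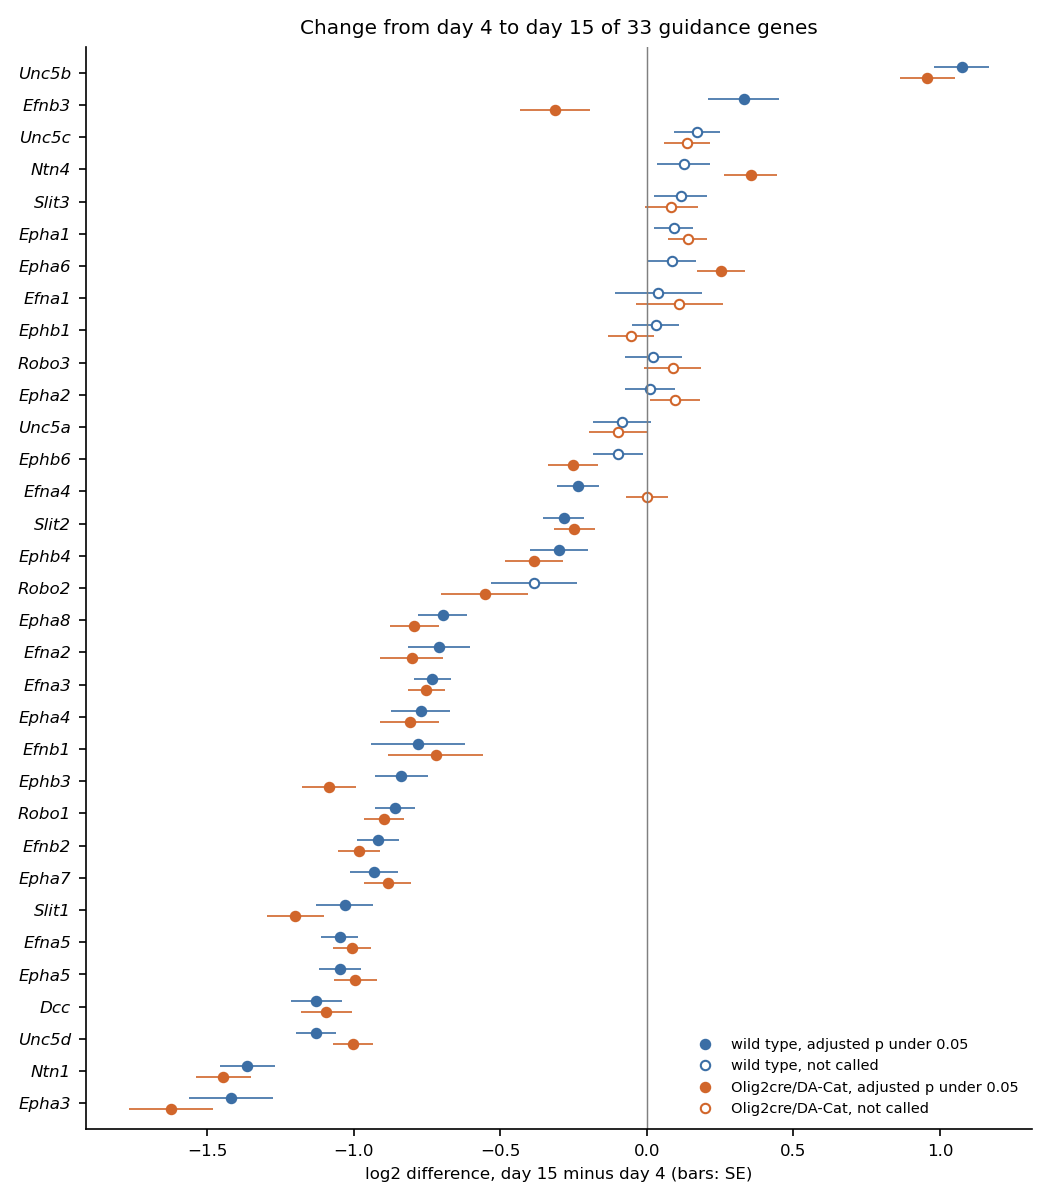
Change of the 33 guidance genes from day 4 to day 15 in log2 units, in wild type (blue) and Olig2cre/DA-Cat (orange), with SE bars; filled points had an adjusted p under 0.05. Most genes lay left of 0 in both genotypes, Unc5b lay near 1 in both, and Efnb3 was at 0.33 in the wild type against -0.31 in Olig2cre/DA-Cat.

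Among the ligands, 6 of 8 ephrins, 2 of 3 Slits and 1 of 2 netrins fell in wild type, where 23.6% of all genes fell. Ntn1, the gene of netrin-1, went from 9.53, 9.63 and 9.62 to 8.05, 8.26 and 8.39 in wild type. In Olig2cre/DA-Cat it went from 9.66, 9.83 and 9.90 to 8.23, 8.38 and 8.44. Days did not overlap, and the change was -1.36 ± 0.09 in wild type (SE, adjusted p = 2.54e-07) and -1.44 ± 0.09 in Olig2cre/DA-Cat (SE, adjusted p = 1.19e-07). Ntn1 had a second, dim probe set (mean 4.48), which gave -0.15 and -0.14. Genes listed as floor plate markers had group means of 7.08 and 6.90 in the wild type against 7.21 and 6.97 in Olig2cre/DA-Cat at the 2 days. They did not move alike: in wild type Shh rose by 0.50, whereas Spon1 changed by -0.65 and Foxa2 by -0.23, all called. In Olig2cre/DA-Cat Shh rose and the other 3 fell. Their part in the change of Ntn1 was not tested, nor was which cells made Ntn1 in these samples.

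Efna5 fell from the day 4 to the day 15 levels given above, by -1.05 ± 0.06 in wild type (SE, adjusted p = 9.94e-08) and -1.01 ± 0.06 in Olig2cre/DA-Cat (SE, adjusted p = 9.56e-08). Its other, dim probe set gave -0.15 and -0.02. Efnb2, a ligand of EphB receptors and of Epha4 that also marks arteries, went from 8.76, 8.79 and 8.73 to 7.74, 7.89 and 7.90 in wild type. In Olig2cre/DA-Cat it went from 8.81, 8.95 and 9.07 to 8.00, 7.93 and 7.96. The days were apart in both genotypes, by -0.92 ± 0.07 (SE, adjusted p = 6.9e-07) and -0.98 ± 0.07 (SE, adjusted p = 3.15e-07). Other Efnb2 probe sets gave -1.13 (mean 7.66), -0.36 (mean 5.28) and -0.10 (mean 4.21) in wild type.

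Of the other ligands, Slit1 changed by -1.03 and -1.20 in the 2 genotypes, Slit2 by -0.28 and -0.25, Efna2 by -0.71 and -0.80, Efna3 by -0.73 and -0.75 and Efnb1 by -0.78 and -0.72, all of them called. In wild type other probe sets gave -0.69 for Slit1, -0.52 and -0.08 for Slit2 and -0.42 for Efna2. They gave -1.18 for Efna3 and -0.51 and -0.47 for Efnb1. Efna4 fell in wild type (-0.23, adjusted p = 0.018), and its value in Olig2cre/DA-Cat was -0.0007. Ntn4, a netrin of basement membranes, rose in Olig2cre/DA-Cat (0.35, adjusted p = 0.00572) and was at 0.13 in wild type (adjusted p = 0.295). The interaction was called for neither Efna4 (0.23, adjusted p = 0.473) nor Ntn4 (0.23, adjusted p = 0.579). Slit3 and Efna1 were called in neither genotype.

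Among the receptors, 7 of 12 Eph receptors, 1 of 3 Robo receptors and 2 of 5 netrin receptors fell in wild type. Of all genes 23.6% fell there. Epha3, a receptor of ephrin-A ligands, had the most negative changes of the receptors, -1.42 ± 0.14 in wild type (SE, adjusted p = 5.75e-06) and -1.62 ± 0.14 in Olig2cre/DA-Cat (SE, adjusted p = 1.49e-06), from 7.05, 7.06 and 6.85 to 5.32, 5.61 and 5.78 in wild type. Its 3 other probe sets were under 5 on average and gave -1.09, -0.15 and 0.09 in wild type. Epha5 fell by -1.05 ± 0.07 (SE, adjusted p = 2.56e-07) and -0.99 ± 0.07 (SE, adjusted p = 2.83e-07), and Robo1 by -0.86 ± 0.07 (SE, adjusted p = 7.26e-07) and -0.90 ± 0.07 (SE, adjusted p = 4.12e-07), with levels as above and no overlap of the days. Other Epha5 probe sets gave -0.50 (mean 8.65), -1.02 (mean 8.50) and -0.26 (mean 5.20) in wild type. Those of Robo1 gave -0.80 (mean 7.90) and -0.16 (mean 5.33). Epha4, which binds ephrins of both classes and guides motor and corticospinal axons, changed by -0.77 and -0.81, Epha7 by -0.93 and -0.88, Epha8 by -0.70 and -0.79, Ephb3 by -0.84 and -1.08 and Ephb4, a receptor of veins, by -0.30 and -0.38, all called. Other Epha4 probe sets gave -0.37, -0.53, -0.69 and -0.53 in wild type.

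The netrin receptors split. Dcc, through which netrin attracts, went from 9.38, 9.26 and 9.22 to 8.15, 8.18 and 8.14 in wild type, and from 9.42, 9.39 and 9.32 to 8.09, 8.28 and 8.48 in Olig2cre/DA-Cat. The fall was -1.13 ± 0.09 (SE, adjusted p = 5.93e-07) and -1.09 ± 0.09 (SE, adjusted p = 5.97e-07); of its 2 other probe sets 1 gave -1.05 and the dimmer one -0.08 in wild type. Unc5d went from 9.11, 9.07 and 9.10 to 8.01, 8.00 and 7.89 in wild type, and from 9.24, 9.05 and 9.20 to 8.11, 8.11 and 8.26 in Olig2cre/DA-Cat. It fell to 0.457 times its day 4 signal in wild type (adjusted p = 9.44e-08) and to 0.499 times in Olig2cre/DA-Cat (adjusted p = 1.64e-07), with no overlap. Unc5b rose by 1.07 ± 0.09 (SE, adjusted p = 1.6e-06) and 0.96 ± 0.09 (SE, adjusted p = 3.39e-06), a doubling in wild type (2.11 times). Unc5a (-0.09 and -0.10) and Unc5c (0.17 and 0.14) were called in neither genotype.

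Epha1, Epha2, Ephb1, Efna1, Slit3, Robo3, Unc5a and Unc5c were called for day in neither genotype, with changes of -0.09 to 0.17 in wild type. Robo2 and Robo3 had group means under 5 in all groups, the level taken as dim here (the median over bacterial control probe sets was 3.07). Robo2 fell in Olig2cre/DA-Cat (-0.55, adjusted p = 0.00774) and was at -0.38 in wild type (adjusted p = 0.0512). Ephb6, a receptor without kinase activity, fell (-0.25, adjusted p = 0.0284) and Epha6 rose (0.25, adjusted p = 0.0206) in Olig2cre/DA-Cat, with wild-type values of -0.10 and 0.09. Over the same days 8 of 8 oligodendrocyte markers rose in each genotype. Of 8 neuron markers 5 fell and 3 rose in wild type, while 2 fell and 3 rose in Olig2cre/DA-Cat. The meninges and fibroblast markers had group means of 10.15 and 9.03 in wild type at day 4 and day 15, and of 10.40 and 9.74 in Olig2cre/DA-Cat. Their part in the lower guidance genes was not tested.

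The third comparison asked whether the genotype effect differed between days. In limma 0 of 33 members passed, where 0.352% of all genes did (0.192% upward, 0.159% downward), and 2 had an unadjusted p under 0.05, Efnb3 and Efna4. Efnb3 rose from day 4 to day 15 in wild type (0.33 ± 0.12 SE, adjusted p = 0.0416) and fell in Olig2cre/DA-Cat (-0.31 ± 0.12 SE, adjusted p = 0.0487). In Olig2cre/DA-Cat the levels of the 2 days overlapped. When all probe sets were fitted, neither change of Efnb3 was called (limma, adjusted p = 0.0545 and 0.0632). With 1 probe set per gene, Efnb3 was the only member with opposite calls, which 0.0934% of all genes had. The difference itself was -0.64 ± 0.17 (SE, adjusted p = 0.197) and is thus not shown. It passed in 1 of 22 alternative settings, with the level of Eif2s3y as covariate (-0.92, adjusted p = 0.0349). Efna4 levels were 6.03, 5.99 and 6.02 against 5.83, 5.86 and 5.86 at day 4, wild type first, and 5.95, 5.71 and 5.67 against 5.87, 5.88 and 5.80 at day 15. The genotypes were parted at day 4 and overlapped at day 15.

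Other genes of these pathways were taken from a list of 63, of which 58 were measured. At day 4 1 was higher and 1 lower in Olig2cre/DA-Cat, 3.45% of the list, where 3.12% of all genes were called. At day 15 2 were higher and 3 lower, 8.62% of the list against 2.93% of all genes. On the average of days 8 were higher and 6 lower, 24.1% of the list against 8.31% of all genes. In limma 0 had an effect that differed between days, where 0.352% of all genes did (7 at an unadjusted p under 0.05). Chn2, a Rac-inactivating chimaerin related to the Chn1 protein that acts behind Epha4, had the smallest p at day 4. Its levels were 9.77, 9.73 and 9.72 in the wild type against 8.98, 8.88 and 8.70 in Olig2cre/DA-Cat, and it was lower by -0.88 ± 0.09 (SE, adjusted p = 0.000145). Trim67, a ubiquitin ligase that binds Dcc, was higher by 0.33 (adjusted p = 0.0456). At day 15 the kinase Abl1, which acts behind Eph and Robo receptors, was lower by -0.48 ± 0.07 (SE, adjusted p = 0.0029), from 9.12, 9.11 and 9.16 to 8.50, 8.79 and 8.65. Neo1, the netrin and RGM receptor closest to Dcc, was lower by -0.39 (adjusted p = 0.0285) and Arhgap39 by -0.31 (adjusted p = 0.0346), whereas the adaptor Grb10 (0.29, adjusted p = 0.00975) and the Robo3 ligand Nell2 (0.28, adjusted p = 0.0323) were higher.

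With day, 31 of the 58 pathway genes fell and 8 rose in wild type, where 23.6% of all genes fell and 21.3% rose. In Olig2cre/DA-Cat 30 fell and 11 rose, where 26.3% of all genes fell and 21.8% rose. The medians of the list were -0.23 and -0.25. Those with the smallest p were Trim67 (-1.95 and -2.16), Evl, an actin regulator of the Ena/VASP family (-1.23 and -1.26), and Grip1, which binds the tail of ephrin-B ligands (-1.45 and -1.25), on the falling side. In Olig2cre/DA-Cat the Slit-Robo GTPase-activating protein Srgap2 (-1.03) ranked before Grip1. On the rising side were Chn1 (1.08 and 1.20), Chn2 (1.13 and 1.68) and the syntenin gene Sdcbp (0.76 and 0.80). Against the same shares of all genes, 7 of 9 measured genes of Slit and Robo signalling fell and 0 rose in each genotype. Of 19 Eph and ephrin signalling genes 6 fell and 6 rose in wild type, and 7 fell and 8 rose in Olig2cre/DA-Cat.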

How the data were processed

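Total RNA of mouse spinal cord was labelled with biotin and hybridised to Affymetrix 3' expression arrays, 1 per sample, per the labels' protocols. The authors deposited 1 value per probe set and array; the deposited values are log2 signals, as judged from their range, and the authors' background correction, summarisation and normalization are not given in the sources used here. Of 45101 probe sets 34958 had 1 gene symbol, 932 several and 9211 none; 1 probe set per gene, that of highest mean, was kept (18194 genes).

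All 12 arrays were fitted together with limma 3.58.1 in R 4.3.3 (lmFit, eBayes), with 1 mean per group, 8 residual and 3.96 prior degrees of freedom, two-sided tests and Benjamini-Hochberg adjustment over all genes at 0.05. The fit was tested on simulated data. The members, the gene lists and the settings were chosen with earlier results of these data known. Every member is accounted for; those with every array value are, per genotype contrast, up to 6 called members with the smallest p (else the 3 smallest) and, per day contrast, the 6 smallest. Genes named beyond these, among them Epha3, and the probe-set values were chosen after their values were seen. Alternatives were quantile normalization, centred arrays, leaving out the dimmest 30% or 50% of genes, trend and robust settings, the mean over probe sets, only the groups compared, the replicate block, array weights, muscle level and, added after seeing the data, Eif2s3y level as covariates, and leaving out each array.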

Additional observations from a re-analysis of the deposited data

How the results depend on the processing

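No called difference of the members described in full changed sign under the alternatives run. The share of all genes called can also change with the setting and is not given beside the counts below. These counts are therefore not read as a result about the members. At day 4, where 2 members were called for genotype, the count was 6 without the dimmest 30% of genes, 7 without the dimmest 50%, 5 with trend and robust settings, 4 from the day 4 arrays alone and 8 with array weights, and 1 to 4 when 1 array was left out (4 without Olig2cre/DA-Cat day 15 replicate 2; 1 without wild type day 4 replicate 1 or 2, any Olig2cre/DA-Cat day 4 replicate or wild type day 15 replicate 2). At day 15 the count of 4 became 1 from the day 15 arrays alone and 2 with the muscle covariate, and 2 to 4 with 1 array left out (2 without wild type day 15 replicate 2). The average of days gave 9, but 5 with the mean of all probe sets, 4 with the muscle covariate and 5 to 11 with 1 array left out (5 without wild type day 4 or day 15 replicate 1 or Olig2cre/DA-Cat day 4 replicate 3). Day counts were 18 to 22 in the wild type against 21 to 24 in Olig2cre/DA-Cat with 1 array left out. The count of members whose genotype effect differed between days was 0 throughout when 1 array was left out, and 1 with the Eif2s3y covariate. The cause was not tested. With the replicate block the counts were 2, 3, 10, 21, 23 and 0 in the order above; same-numbered arrays correlated at -0.34 to 0.30, so the numbers were not taken to pair the samples. The average and the difference between days need all groups, so they have no value from fewer groups.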

Other observations

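Probe sets of 1 gene did not always move alike. A dim Epha3 probe set (mean 3.87) was called higher in Olig2cre/DA-Cat at day 4 (0.36, adjusted p = 0.0309 over all probe sets), whereas the brightest one gave 0.37 with an adjusted p of 0.233 in that fit. Among 4 probe sets of Epha7 the change from day 4 to day 15 in wild type lay between -1.50 and -0.39. The second probe set of Efna3 fell by -1.18 in wild type, against -0.73 for the one kept.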
